A study of Mus musculus with 10 samples.

Results

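The genes described here are the neighbours of Tet1 on mouse chromosome 10. Members were all array probes whose smaller mm9 coordinate lies on chromosome 10 from 52.3 to 72.3 Mb, with Tet1 itself and Nodal left out. The window holds 223 probes for 178 genes or named transcripts, of 39429 gene probes in the files. A signal well above background in at least 1 group of lines was found for 154 of these probes, and these stand for 123 genes, of 20651 genes tested in all. The other 55 members, among them Cdh23, Col13a1, Ctnna3, Atoh7 and Fabp7, had no tested probe. At the edges, the outermost probes inside the window were those of Slc35f1 (9.47 Mb from Tet1 on the smaller-coordinate side) and Zwint (9.86 Mb on the larger-coordinate side), and the first probes outside were those of Zfa (10.01 Mb) and A330049N07Rik (10.16 Mb).

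The RNA came from 11 mouse embryonic stem cell lines on 10 arrays with 2 colours. Lines with Tet1 were the WT lines 6 and 92 (male) and 7 and 94 (female) and the male Tet2 knockout line T2KO 16. Lines lacking Tet1 were the male Tet1 knockouts T1KO 99 and T1KO 65 and the Tet1/Tet2 double knockouts DKO 51 and 61 (male) and DKO 60 and 59 (female). Every line was of mixed C57BL/6 background and was grown in medium containing LIF on irradiated feeder cells, which were taken off by preplating. T2KO is 1 line, the T1KO group holds no female line, and the sources used here do not give the knockout alleles or the cells in which they were made. The DKO and T2KO lines were read in Cy5 and the WT and T1KO lines in Cy3, so that loss of Tet2 and dye cannot be told apart, whereas Tet1 is present in lines of both dyes and absent in lines of both dyes. A level is the normalized log2 intensity of 1 probe. The p-values measure the spread between lines. Where T2KO 16 alone forms a group, that spread comes from the other lines.

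TET1 is a dioxygenase that oxidises 5-methylcytosine in DNA, and embryonic stem cells express it strongly. A targeted gene brings its surroundings with it: DNA linked to the knockout allele can come from the strain in which the gene was targeted, so that genes near the locus may differ between knockout and WT lines through sequence variants or through the inserted cassette. Such differences are called passenger or flanking-gene effects. They would be expected more often in genes near the locus than in genes far from it, though their size need not fall with distance. Lines that carry the targeted allele need not share the same length of linked DNA. The comparison asked of the members is therefore whether they differ between lines lacking Tet1 and lines with it, and whether the genes closest to Tet1 differ more than those far away.

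The probes on which the results turn are printed here, since a value from a flanking gene is a value of 1 short stretch of its transcript, and a sequence variant under the probe would act there. Each line gives the first 30 of the 60 bases of the probe as deposited, 5′ to 3′. They are the probe of Tet1, those of its nearest tested neighbour on each side, and those of 4 members with a small p or no overlap between the groups.
Tet1: ctgtactcaaataacacacggcttctgttc
Ccar1: ggatgaactttgttatagtttccccaataa
Slc25a16: cttggtatgtactaggaaatgtaaatggac
Supv3l1: accgatttattgatatgtttccagactcta
Sgpl1: ctttcctaactgcagcaataacccttcaaa
Unc5b: cctgttcgtccattctgtaaataacttgta
Cisd1: agactggcgacaacgtaggacctctgatca
In mm9 the Tet1 probe lies at chr10:62274448-62274507, the Ccar1 probe at chr10:62207215-62207274 and the Slc25a16 probe at chr10:62408580-62408639. The Supv3l1 probe lies at chr10:61892521-61892580, the Sgpl1 probe at chr10:60561392-60561451, the Unc5b probe at chr10:60225398-60225457 and the Cisd1 probe at chr10:70793775-70793834. The Slc25a16 probe has the plus strand in the files and the other 6 the minus strand. Whether each lies in an exon or a UTR of its gene was not analysed here, and variants between strains under the probes were not analysed here.

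Tet1 was lower in each line labelled as lacking it than in any line with it. Its level was 13.12, 12.80, 12.78 and 12.82 in WT 6, 92, 7 and 94 and 12.91 in T2KO 16, against 10.998 and 10.92 in T1KO 99 and 65 and 11.07, 10.83, 10.67 and 10.52 in DKO 51, 61, 60 and 59. The groups did not overlap. In the lines lacking Tet1 the probe still read above 9.35, the median level of the members in lines with Tet1. The source of that remaining signal was not tested. With the dye fitted, lines lacking Tet1 lay lower by a log2 difference of -2.002 (SE 0.12, adjusted p = 0.00011 by limma, Benjamini-Hochberg over 20651 genes). For Tet2 the log2 difference by Tet1 status was -0.21 (SE 0.16, limma adjusted p = 0.768). The dye fitted is the same split as loss of Tet2, so the fit takes up the fall of Tet2 in its own knockouts. The Tet2 level was 9.74 in T2KO 16 and 9.78, 10.12, 9.60 and 9.40 in DKO 51, 61, 60 and 59. It was 12.05, 11.51, 11.95 and 11.78 in WT 6, 92, 7 and 94 and 11.58 and 11.43 in T1KO 99 and 65.

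None of the 123 flanking genes passed adjusted p 0.05 between the 6 lines lacking Tet1 and the 5 lines with it, in either direction. Tet1 was the only gene of all 20651 that did, which is 0.00484% of the genes tested, so this comparison called almost nothing anywhere. With T2KO 16 left out, every Cy5 line lacks Tet1, so that the comparison with dye fitted becomes T1KO minus WT, in which Tacr2 was called and which is described with the comparisons within a dye. At an unadjusted p under 0.05, 13 of the 123 members differed (10.6%), 9 higher and 4 lower without Tet1, against 9% of all genes tested. The smallest adjusted p among the members was 0.354. The median log2 difference of the members was 0.00, with 65 above 0. For 115 of the 123 members the 95% interval of the log2 difference lay inside -1 and 1, which is a change of less than 2-fold either way, and for 89 of them inside -0.5 and 0.5. The 8 others were Gja1, Pkib, Sgpl1, TC1739424, Neurog3, Hkdc1, Srgn and Cdk1, and for these a difference of 2-fold was within the interval.

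**Figure D1:**
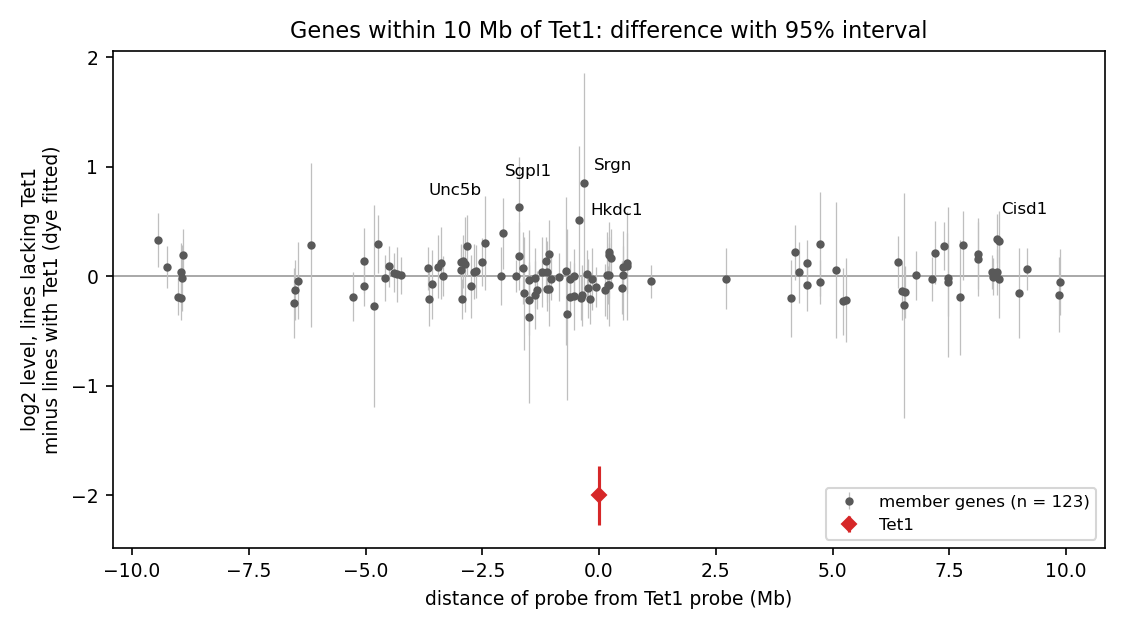
Log2 difference between lines lacking Tet1 and lines with Tet1 (vertical axis, dye fitted, bars 95% intervals) for the 123 member genes and Tet1, against the distance of the probe from the Tet1 probe in Mb (horizontal axis, negative on the smaller-coordinate side). Tet1 lies at -2.002 and the members lie between -0.37 (TC1739424) and 0.85 (Srgn).

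The nearest tested gene on each side of Tet1 had overlapping levels in lines with and without it. Ccar1, a regulator of cell division and apoptosis and the nearest tested gene on the smaller-coordinate side (0.07 Mb), had levels of 11.37, 11.38, 11.53 and 11.39 in WT 6, 92, 7 and 94 and 11.62 in T2KO 16. In the 6 lines lacking Tet1 it ranged from 11.28 to 11.48 with a median of 11.40. The groups overlapped, and the log2 difference was -0.10 (95% interval -0.28 to 0.08, limma adjusted p = 0.789).

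Slc25a16, a carrier of the mitochondrial inner membrane and the nearest tested gene on the other side (0.13 Mb), had levels of 8.65, 8.67, 8.76 and 9.01 in the WT lines in the same order and 8.71 in T2KO 16. Without Tet1 it ranged from 8.38 to 8.78, with a median of 8.72. The groups overlapped here too, and the log2 difference was -0.12 (95% interval -0.36 to 0.12, limma adjusted p = 0.807).

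The 12 nearest genes, 6 on each side, comprised RNA helicases, DNA repair and trafficking genes. On the smaller-coordinate side lay Srgn, Kifbp (a kinesin-binding protein), the nucleolar RNA helicases Ddx21 and Ddx50, Stox1 and Ccar1. On the other side lay Slc25a16, Dna2 (a nuclease and helicase of DNA replication), Rufy2, the RNA-binding protein gene Hnrnph3 and the transcripts ENSMUST00000143689 and D10Bwg1070e. For 11 of the 12 the log2 difference was at most 0.22 in size, and for these 11 the 95% intervals reached no further than -0.45 and 0.49. Ddx50 stood at -0.21 (SE 0.10), Ddx21 at -0.11 (SE 0.12), Dna2 at 0.01 (SE 0.18) and Hnrnph3 at -0.08 (SE 0.17). ENSMUST00000143689 stood at 0.19 (SE 0.08, unadjusted p = 0.031, limma adjusted p = 0.499). Its groups did not overlap, by a narrow margin: 8.62 to 8.85 in lines lacking Tet1 and 8.41 to 8.61 in lines with it. Adjusted p-values by limma over the 12 ran from 0.499 to 0.995.

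Srgn, the twelfth of these genes, encodes serglycin, a proteoglycan of secretory granules. It varied from line to line within both groups: 7.80, 9.58, 8.24 and 7.46 in WT 6, 92, 7 and 94 and 7.51 in T2KO 16, against 8.55 and 10.08 in T1KO 99 and 65 and 7.80, 7.46, 8.13 and 8.70 in DKO 51, 61, 60 and 59. T1KO 65 and WT 92 were the highest, and the groups overlapped over most of their range. The log2 difference was 0.85 (SE 0.46, limma adjusted p = 0.652), the largest in size among the members. Within the slide of the male DKO and WT lines it was -1.06 (SE 0.61), with the opposite sign.

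**Figure D2:**
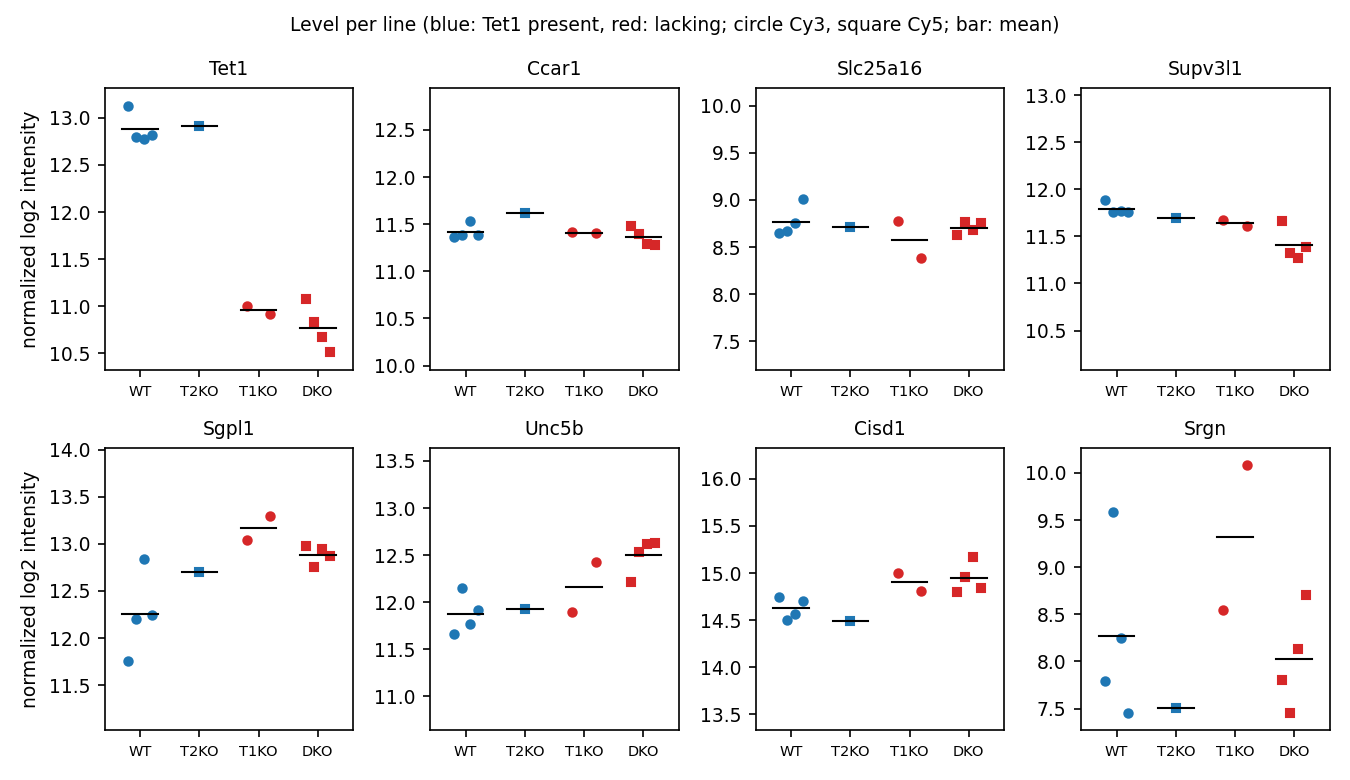
Normalized log2 intensity (vertical axis, 3 or more log2 units in each panel) of Tet1, the 2 genes next to it and 5 other members in each line, by genotype; points are lines, bars are means, blue is Tet1 present, red is Tet1 lacking. Tet1 separates by about 2 log2 units, Ccar1 and Slc25a16 overlap, Supv3l1 and Cisd1 separate by a narrow margin, and Srgn scatters within each genotype.

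The median size of the difference did not fall steadily with distance from Tet1. The median absolute log2 difference was 0.11 in the 48 members within 2 Mb of Tet1, 0.09 in the 34 members at 2 to 5 Mb and 0.15 in the 41 members at 5 to 10 Mb on either side. It was 0.10 in the 813 tested genes on the rest of chromosome 10, 0.11 in the 98 genes within 10 Mb of Tet2 on chromosome 3, which serve as neighbours of the other targeted gene, and 0.10 in all genes tested. The share at an unadjusted p under 0.05 was 8.33% within 2 Mb, 11.8% at 2 to 5 Mb and 12.2% at 5 to 10 Mb, against 9.96% on the rest of chromosome 10 and 10.2% around Tet2. With narrower classes the median was 0.10 in the 29 members within 1 Mb, 0.12 in 33 members at 1 to 3 Mb and 0.13 in 61 members at 3 to 10 Mb. The median within 2 Mb depended on T2KO 16: without that line the comparison is T1KO minus WT alone, in which slide and genotype cannot be told apart, and the median was 0.174. In that comparison it was 0.14 at 2 to 5 Mb, 0.15 at 5 to 10 Mb and 0.15 in all genes. No difference was tested between these classes, whose genes share the same lines.

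**Figure D3:**
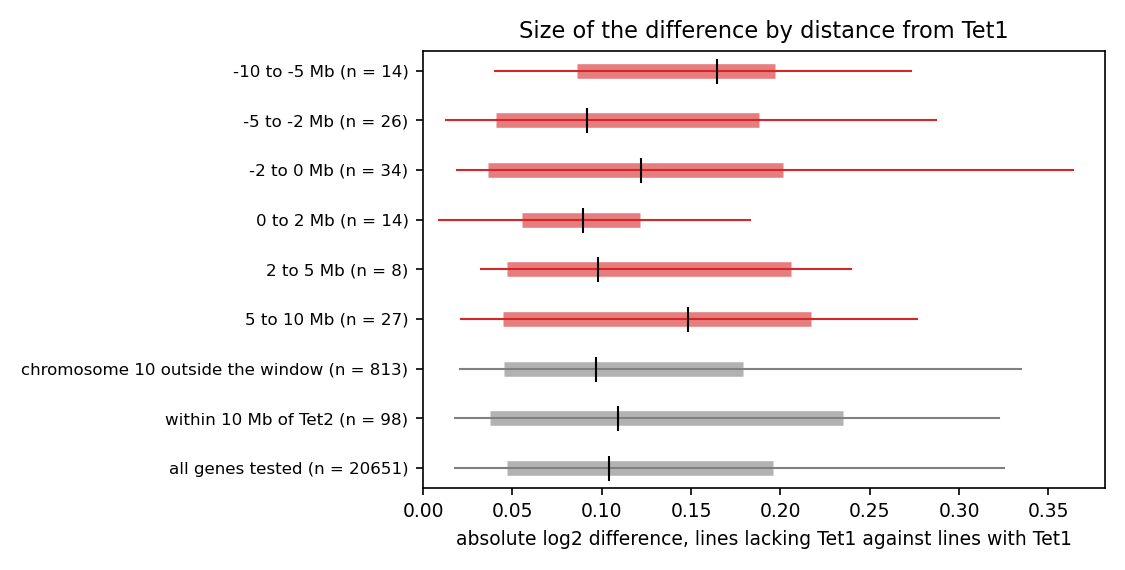
Absolute log2 difference between lines lacking Tet1 and lines with it (horizontal axis), by distance of the gene from Tet1 (red) and in 3 reference sets (grey); the tick is the median, the box the middle 50% and the line the 10th to 90th percentile of genes. The medians of the 6 distance classes lie between 0.09 and 0.16 and those of the reference sets between 0.10 and 0.11.

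Log2 differences over 0.5 in size were found in 3 of the 123 members (2.44%), against 3.57% of all genes tested. The 3 were Srgn, Sgpl1 and Hkdc1, each with a higher mean without Tet1 and each within 2 Mb on the smaller-coordinate side. They are 6.25% of the 48 members within 2 Mb, against 0 of the 34 at 2 to 5 Mb and 0 of the 41 at 5 to 10 Mb. The share was 3.81% on the rest of chromosome 10 and 6.12% within 10 Mb of Tet2. A difference between these shares was not tested. Hkdc1, which encodes a hexokinase domain protein, lay at 0.51 (SE 0.31, limma adjusted p = 0.697), and its groups overlapped, with 7.21, 7.90, 7.25, 6.72 and 7.02 in the lines with Tet1 and 6.99 to 8.31 (median 7.35) in those without. The Hkdc1 probe was dim and was well above background in only 4 groups of lines.

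Sgpl1 encodes sphingosine-1-phosphate lyase, which ends sphingosine-1-phosphate signalling by cleaving the lipid, and lies 1.71 Mb from Tet1. Its level was 11.75, 12.20, 12.83 and 12.24 in WT 6, 92, 7 and 94 and 12.70 in T2KO 16. It was 13.04 and 13.29 in T1KO 99 and 65, and 12.98, 12.76, 12.94 and 12.87 in DKO 51, 61, 60 and 59. The lines lacking Tet1 were the higher ones except that DKO 61 lay below WT 7. The log2 difference was 0.63 (SE 0.21, 95% interval 0.18 to 1.09, unadjusted p = 0.0106, limma adjusted p = 0.399), a 1.55-fold higher level without Tet1 that did not pass the threshold. T1KO lay 0.91 above WT (SE 0.23, limma adjusted p = 0.118) and DKO lay 0.18 above T2KO (SE 0.30, limma adjusted p = 0.793). These gaps share no line, but the T1KO and T2KO lines were on 1 slide and the WT and DKO lines on others. Slide and genotype therefore cannot be told apart in either gap. The difference between the gaps did not pass the test (-0.73, SE 0.38, limma adjusted p = 0.347).

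Groups without overlap, meaning that each of the 6 lines lacking Tet1 was above or below each of the 5 lines with it, occurred in 6 members (4.88%), against 1.66% of all genes. They were spread across the window: 2 of the 48 members within 2 Mb, 2 of the 34 at 2 to 5 Mb and 2 of the 41 at 5 to 10 Mb, and 2.34% of the genes on the rest of chromosome 10. The 3 higher without Tet1 (2.44%, against 0.804% of all genes) were Cisd1, Slc35f1 and ENSMUST00000143689. The Slc35f1 probe was dim, at 6.31 to 6.76 with Tet1 and 6.85 to 7.20 without, and was well above background in only 2 groups of lines. It may have entered the tests through groups in which it is high. The 3 lower (2.44%, against 0.853%) were Supv3l1, Septin10 and the probe A_55_P2160594, which has no gene name. None passed the test across all genes, and the difference from the genome-wide share was not tested.

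Cisd1, which encodes an iron-sulfur protein of the outer mitochondrial membrane, had the smallest p of the members and lies 8.52 Mb from Tet1. Its level was 14.75, 14.50, 14.57 and 14.70 in the WT lines and 14.49 in T2KO 16, and 14.80 to 15.17 (median 14.90) in the 6 lines lacking Tet1. The gap between the groups was narrow. The log2 difference was 0.34 (SE 0.10, 95% interval 0.12 to 0.57, unadjusted p = 0.00605, limma adjusted p = 0.354).

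Supv3l1, an RNA helicase of mitochondria, is the nearest member apart from ENSMUST00000143689 whose groups did not overlap (0.38 Mb). Its level was 11.89, 11.76, 11.77 and 11.75 in the WT lines and 11.70 in T2KO 16, and 11.27 to 11.67 (median 11.50) in the lines lacking Tet1. The log2 difference was -0.20 (SE 0.09, unadjusted p = 0.0485, limma adjusted p = 0.548).

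Of the other members with small p, Ipmk, an inositol phosphate kinase, differed by 0.32 (SE 0.12, limma adjusted p = 0.461), Ccdc6, a gene known as a fusion partner of RET in tumours, by 0.27 (SE 0.10, limma adjusted p = 0.453), and Slc35f1 by 0.33 (SE 0.11, limma adjusted p = 0.428). Ipmk and Slc35f1 each have a second tested probe, and it read 0.11 (SE 0.13) and 0.12 (SE 0.17), while that of Ccdc6 read 0.29 (SE 0.14). The first probe of Slc35f1 was well above background in only 2 groups of lines. Of the 27 members with more than 1 tested probe, the median spread between the probes was 0.14, against 0.09 in all genes with more than 1, and 0 of 27 spreads exceeded 0.5, against 1.88% of all genes.

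With the lines hybridised together on 1 array taken as pairs, the comparison of Tet1 status within arrays called 0 of the 123 members, with 0.00968% of all genes called, one of them Tet1. At an unadjusted p under 0.05, 15 members differed (12.2%), against 13.4% of all genes. Unc5b came closest to the threshold, at 0.56 (SE 0.11, limma adjusted p = 0.198). With the pair as a random block in the comparison across lines, 0 members were called while 1.03% of all genes were, and 24 members differed at an unadjusted p under 0.05 (19.5%) against 16.8% of all genes.

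DKO lines were set against WT lines in 4 pairs, where Tet1 loss, Tet2 loss and dye go together. In this comparison 3 of the 123 members changed (2.44%), against 4.55% of all genes. Unc5b and Ccdc138 rose (1.63%, against 2.84% of all genes) and Tysnd1 fell (0.813%, against 1.71%). At an unadjusted p under 0.05, 29 members differed (23.6%), against 26.2% of all genes. In 46 members the 4 pairs had the same sign (37.4%), 22 above 0 and 24 below, against 37.3% of all genes. The calls depended on the number of pairs and the scaling. With any 1 pair left out, limma called 0 members and 0 genes in all, and 15 to 30 members had an unadjusted p under 0.05. With arrays centred on the median in place of loess, the median over all genes moved from 0.02 to 0.195, and 35 members (33 higher, 2 lower, 28.5%) and 32.4% of all genes were called, of which 92.4% were higher, against 62.3% with loess. With the log ratios that the scanner software wrote, 75.6% of all calls were higher, and 2 members were called.

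Unc5b encodes a netrin receptor of guidance signalling and lies 2.05 Mb from Tet1. The log2 ratios of DKO over WT were 0.55, 0.37, 0.86 and 0.71 in the pairs 51 and 6, 61 and 92, 60 and 7, and 59 and 94, with a mean of 0.62 (SE 0.09, limma adjusted p = 0.0387). It missed the threshold with background fitted on all spots (0.58, limma adjusted p = 0.0537) and with the scanner software's ratios (0.61, limma adjusted p = 0.0578). The ratio of T2KO 16 over T1KO 65 was -0.49, the opposite sign. Of the Cy3 lines, T1KO 65 (12.42) was above WT 6, 92, 7 and 94 (11.66, 12.16, 11.77 and 11.92), whereas T1KO 99 (11.90) was among them. The groups of Tet1 status overlapped, with a log2 difference of 0.39 (SE 0.15, unadjusted p = 0.0229, limma adjusted p = 0.46).

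Ccdc138 and Tysnd1 differed the same way in T2KO 16 over T1KO 65 as in DKO over WT. Tysnd1, a protease of peroxisomes 1.11 Mb from Tet1, had ratios of -0.62, -0.57, -0.45 and -0.52 in the 4 pairs (mean -0.54, SE 0.06, limma adjusted p = 0.0222) and -0.37 in T2KO 16 over T1KO 65. Ccdc138, 4.24 Mb away, had 0.56, 0.45, 0.54 and 0.53 (mean 0.52, SE 0.06, limma adjusted p = 0.0217) and 0.45. In the authors' value table Ccdc138 lay at 0.06 for DKO over WT (SE 0.09, limma adjusted p = 0.707). The log2 difference by Tet1 status was 0.04 (SE 0.13) for Tysnd1 and 0.01 (SE 0.08) for Ccdc138. A second probe of Ccdc138 read -0.37 for DKO over WT, the opposite direction.

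A difference that goes with Tet1 status would give ratios of opposite sign in DKO over WT and T2KO over T1KO, as the ratios of Tet1 do (-2.11 and 1.99), and one that goes with Tet2 status or dye would give the same sign, as those of Tet2 do (-2.10 and -1.69). The 2 ratios share no line. The sign was opposite in 66 of the 123 members (53.7%), against 46.5% of all genes. Across the members the 2 ratios had a correlation of 0.05 over genes, against 0.06 over all genes, which is a description because genes are not independent replicates. The single pair of T2KO 16 over T1KO 65 called 0 members and 0% of all genes, with 12 members at an unadjusted p under 0.05 (9.76%), against 13.1% of all genes.

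**Figure D4:**
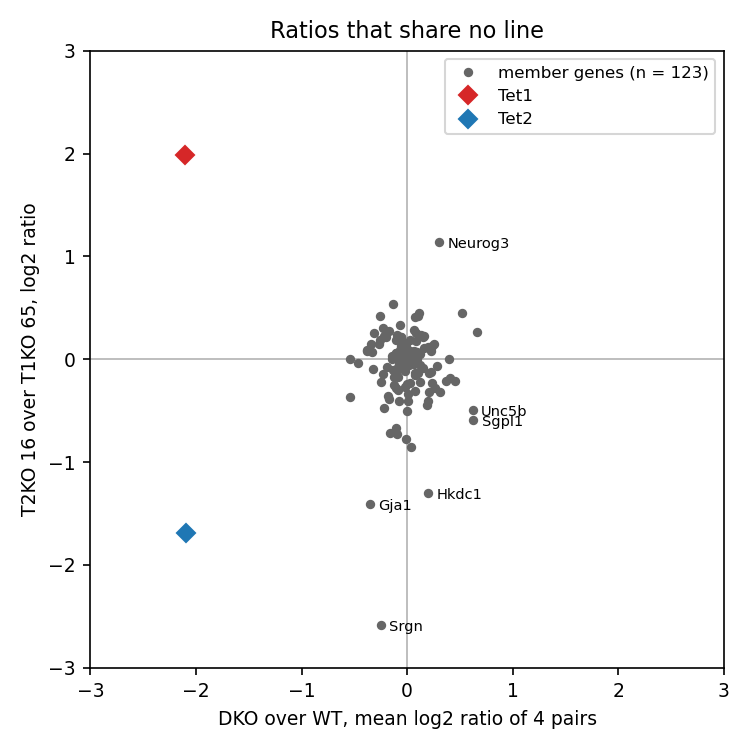
Mean log2 ratio of DKO over WT in 4 pairs (horizontal axis) against the log2 ratio of T2KO 16 over T1KO 65 (vertical axis), which share no line, for the 123 member genes, Tet1 and Tet2. Tet1 lies at -2.11 and 1.99 and Tet2 at -2.10 and -1.69, while the members lie around 0 with Srgn lowest at -2.58.

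T1KO was set against WT (both Cy3) and DKO against T2KO (both Cy5), so that the dye was the same on both sides of each comparison. The T1KO and T2KO lines were on 1 slide and the WT and DKO lines on the 2 others, so slide and genotype cannot be told apart in either comparison. T1KO minus WT called 1 member (0.813%), against 0.639% of all genes, and 19 members had an unadjusted p under 0.05 (15.4%), against 15.1%. DKO minus T2KO called 0 members, against 0.16% of all genes, and 24 members had an unadjusted p under 0.05 (19.5%), against 15.6%. The sign of the 2 comparisons was the same in 57 members (46.3%), against 43.2% of all genes.

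The member called was Tacr2, the receptor for neurokinin A, 0.55 Mb from Tet1. Its level was 9.31 and 9.37 in T1KO 99 and 65, below WT 6, 92, 7 and 94 (9.77, 9.89, 9.79 and 9.89), a log2 difference of -0.50 (SE 0.08, limma adjusted p = 0.0279). T2KO 16, which has Tet1 and was on the same slide as the T1KO lines, was at 9.49, and DKO 51, 61, 60 and 59, which lack Tet1, were at 9.81, 9.81, 9.80 and 9.89. The low lines of Tacr2 were therefore the 3 lines of that slide. The call was lost with male lines only and without any 1 of WT 6, WT 92, WT 94, T1KO 99 or T1KO 65. Across all lines the log2 difference by Tet1 status was -0.18 (SE 0.14, limma adjusted p = 0.758). A second tested probe of Tacr2 was dimmer, at 6.88 to 7.24 over all lines, and was well above background in only 5 groups of lines. A narrow range in so dim a probe cannot decide whether the difference of the first holds. By Tet1 status the second probe read -0.05 (SE 0.08).

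The test of whether the effect of Tet1 loss differed by Tet2 status splits the lines in the same way as the slides. Members picked by it therefore tend to set the slide of the T1KO and T2KO lines apart from the others, as most did. Slide and genotype cannot be told apart in this arrangement. The difference between the comparisons, DKO minus T2KO less T1KO minus WT, passed adjusted p 0.05 by limma in 5 members (4.07%), against 2.15% of all genes: 4930466K18Rik, Gja1, Ranbp2, Tacr2 and Fam13c. Gja1 encodes the gap junction protein connexin 43 and Ranbp2 a protein of the nuclear pore. In Fam13c, the lines T2KO 16 and T1KO 99 and 65 were at 8.003, 7.85 and 8.11 and the 8 lines of the other slides at 8.45 to 8.998. In Ranbp2 they were at 11.50, 11.50 and 11.41, and the other lines at 11.66 or above, and in 4930466K18Rik at 6.54, 6.87 and 6.89, and the others at 6.97 or above. In Gja1, T2KO 16 alone was low: it was at 8.14 and each of the other 10 lines was at 9.22 or above, with T1KO 99 and 65 at 9.60 and 9.54. The member with the widest gap that did not pass was Cdk1, the kinase that drives entry into mitosis, which was at 11.09 to 11.20 in the 3 lines of that slide, 11.57 to 11.89 in the male DKO and WT lines and 12.68 to 13.00 in the female ones. A second tested probe of Cdk1 was dimmer, at 7.36 to 7.71 over all lines, and so was that of Fam13c, at 7.38 to 7.94. Their narrow ranges cannot decide whether the differences of the first probes hold. By Tet1 status these second probes read -0.05 (SE 0.09) and 0.18 (SE 0.12), against -0.27 (SE 0.47) and -0.19 (SE 0.24) with the first.

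The members were also grouped by what their products do. No gene of any group passed the test of Tet1 status. Of 8 genes for cell division and DNA replication, among them Cdk1, Zwint, Mcm9 and Dna2, the median log2 difference was -0.08, with 3 of 8 above 0 and 2 at an unadjusted p under 0.05. Of 17 tested genes of mitochondria and metabolism it was 0.12, with 14 of the 17 above 0 and 3 at an unadjusted p under 0.05, and this group holds Sgpl1 (0.63), Cisd1 (0.34) and Supv3l1 (-0.20). Of 5 tested genes for RNA and translation it was -0.09, with 0 of 5 above 0 and 0 at an unadjusted p under 0.05. Of 8 tested genes for transcription and chromatin, which include the deacetylase gene Sirt1 and the zinc finger gene Egr2, it was 0.07, with 5 above 0 and 0 at that p. Of 12 tested genes for trafficking, ubiquitin and signalling it was 0.00, with 6 above 0 and 1 at that p, and of 11 tested genes for the cell surface, adhesion and tissue functions it was 0.04, with 8 above 0 and 2 at that p. Of all genes tested, 49.4% lay above 0, 9% had an unadjusted p under 0.05 and the median was -0.00, and the groups were not tested against each other.

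Each array held 43020 gene spots, with 0 saturated, and Cy3 read 55.2% to 61.5% of them clearly brighter than background and Cy5 62.6% to 69.0%; the number of arrays limits the precision. Repeat arrays of the same lines had log ratios that correlated at 0.937 to 0.967 across the members. Of 8 markers of embryonic stem cells, among them Pou5f1 and Nanog, 8 were tested and 0 were called by Tet1 status, with a mean level of 14.51 to 14.87 in lines lacking Tet1 and 14.67 to 14.93 in lines with it; 2 of the 8 log2 differences were above 0 (median -0.14) and 0 had an unadjusted p under 0.05. Of 12 markers of feeder fibroblasts, 12 were tested and 0 were called, with a mean level of 11.57 to 12.20 and 11.42 to 12.13, and 10 of the 12 log2 differences were above 0 (median 0.12), with 1 at an unadjusted p under 0.05. Their part in the members' differences was not tested. In RNA from whole cultures, fewer cells of a type and less RNA per cell cannot be told apart.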

How the data were processed

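Per the file headers, each deposited array file gives a spot's mean intensity and its local background intensity in Cy3 and Cy5, read with Agilent Feature Extraction 10.1.1.1. They also hold the log10 ratio of Cy5 over Cy3 as deposited by that software. The authors' deposited value table holds log2 ratios by their size; its columns had medians of 0.00182 to 0.00751 and correlated with the scanner's log2 ratios at 0.925 to 0.971. Its slope on them was 0.835 to 0.882, and the processing behind it is not given in the sources used here. Coordinates are those of the files (mm9). Symbols came from a RefSeq table for 26581 probes and from the files for the rest.

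Intensities were background-corrected with limma 3.58.1 in R 4.3.3 (normexp, offset 50, fitted without gene spots below their local background), normalized within arrays by loess and between arrays by Aquantile. Spots of a probe and repeat arrays of a line were averaged. The Cy5 channel of the T1KO 99 arrays, which the labels exclude for a wrong genotype, entered no comparison but did enter the normalization. Probes entered the tests where every array of some group of lines (1 genotype and sex) flagged them as well above background, and a gene was its brightest tested probe. Such a filter can keep a gene through the group in which it is high.

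Fits used lmFit and eBayes, two-sided, with Benjamini-Hochberg adjustment over all genes at 0.05: Tet1 status across 11 lines with dye as a covariate, Tet1 status within arrays over 5 pairs, DKO over WT over 4 pairs, and genotype means. T2KO over T1KO, a single pair, takes its spread from the other pairs. DKO minus T2KO and the difference between the comparisons take theirs from the WT, T1KO and DKO lines. Deviations of the lines hybridised together correlated at 0.190 to 0.512 over all genes in the 4 DKO and WT pairs, so these lines are paired by array. Genes named in the text were the 6 nearest tested genes on each side of Tet1, the 6 of smallest p, and those called in DKO over WT; others were named after their values were seen. The members, gene lists and alternatives were chosen with earlier results of these data known. The scripts were tested on simulated data.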

Additional observations from a re-analysis of the deposited data

Results flagged for a closer look

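Levels of 28 named members were examined for a line far from the rest of its group, in 56 groups. This picked out 5 values. Chance flags about 1 in 20 in values not used for the choice. That rate does not hold here, because some of the members were named from these same values. Gja1 and Ranbp2 were named through the difference between the comparisons, which draws on T2KO 16, and Ccdc138 through DKO over WT. T2KO 16 stood apart from the WT lines in Ccdc138 (16.73, against 16.04 to 16.21), Gja1 (8.14, against 9.72 to 10.33) and Ranbp2 (11.50, against 11.66 to 11.69). WT 7 was low in Slc35f1 (6.31, against 6.64 to 6.76 in the others with Tet1), and DKO 60 was low in Ccdc6 (11.17, against 11.40 to 11.51 in the others lacking Tet1).

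In 5 members the effect of Tet1 loss differed between the lines lacking Tet2 and those with it, by limma's test of the difference between the comparisons. The log2 difference of the effects was 0.80 in 4930466K18Rik (adjusted p = 0.0281), 2.03 in Gja1 (adjusted p = 0.024), 0.63 in Ranbp2 (adjusted p = 0.0464), 0.83 in Tacr2 (adjusted p = 0.0142) and 1.37 in Fam13c (adjusted p = 0.0334). This contrast splits the lines in the same way as the slides, from which it cannot be told apart. T2KO is 1 line in it, and the spread comes from the other genotypes.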

How the results depend on the processing

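Across lines, the count of members called by Tet1 status was 0 in each alternative background correction, normalization, filter, probe choice, covariate and block tried, including the replicate block with pairs as a fixed term, and 0 to 1 with 1 line left out; the 1 was Tacr2 without T2KO 16, which leaves T1KO minus WT alone. The median absolute log2 difference within 2 Mb ran from 0.0775 (background fitted on all spots) to 0.174 (without T2KO 16, again T1KO minus WT alone). Within arrays, keeping every array with the pair as a random block called 1 member, Unc5b. For DKO over WT, median centring called 35 members and keeping every array 7, against 3, and leaving out a pair called 0 to 0; the levels with no replicate block called 4. For Tet1 status across lines, the random replicate block called 0 members and 212 of 20651 genes, against 1 without it. T1KO minus WT called 0 with male lines only and 0 to 2 with 1 line left out, and DKO minus T2KO called 0 to 1 (Gja1, without DKO 51), alternatives chosen after seeing the data. Srgn turned to -1.06 within slide 1. Ccdc138 in DKO over WT was 0.06 in the authors' value table. Of 538 values of 20 named genes under alternatives, 54 in 11 genes changed sign within their SE. The cause of these changes was not tested. With 11 lines taken as independent, the 95% interval left out a 2-fold difference for 115 of 123 members and a difference of 0.5 log2 units for 89.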
